A study of Mus musculus with 2 samples.

Results

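Cdkn1a, which encodes the cell-cycle inhibitor p21, and 9 other genes known to be switched on by the transcription factor p53 were followed through single heart cells of aged mice. The 9 others are Mdm2, Ccng1, Phlda3, Zmat3, Eda2r, Sesn1, Trp53inp1, Gdf15 and Plk2. They were chosen by name, and all 10 are among the 15247 genes of the deposited table. The cells came from C57BL/6 mice, 20 to 22 months old, of the p16-FDR strain. These mice carry an FLP recombinase and a diphtheria toxin receptor joined to the fluorescent protein mCherry, and the reporter is named for p16, a cell-cycle inhibitor encoded by Cdkn2a. Heart cells were sorted by flow cytometry for mCherry, so every cell described here carries these alleles and passed that sort. The labels give 1 group of 2 samples and name no treatment other than the sort. Cells without mCherry and cells of young mice were not analysed here.

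The table holds 1426 cells measured by a droplet kit that reads the 3′ end of RNA and counts unique molecular identifiers (UMIs). Levels are therefore given as CPM, the UMIs of a gene over all UMIs of its class and library on a common scale, and are not divided by gene length. The name of each cell begins with 1 of 2 prefixes, here taken as the libraries Heart1 and Heart2. The names do not show which sample record each library is, or whether each came from separate animals. Heart1 held 266 cells with 3304045 UMIs and Heart2 held 1160 cells with 10632723 UMIs, and the libraries shared 0 cell barcodes. A cell was called a fibroblast or a macrophage when it had UMIs of at least 4 of 8 marker genes of that type, at most 2 of 8 of the other type, and few markers of endothelial, T or B cells. Fibroblasts numbered 205 in Heart1 and 939 in Heart2, and macrophages numbered 37 in Heart1 and 207 in Heart2. Another 24 cells of Heart1 and 14 of Heart2 met neither rule. Genes that the gate did not use set the classes apart. Sparc, a matrix protein gene, had UMIs in 100% of fibroblasts in Heart1 and 99.8% in Heart2, and in 0 of 37 and 0 of 207 macrophages, which allows shares of up to 9.49% and 1.77%. It was the cleanest of 4 such fibroblast genes, of which the most widely seen was in 13.5% and 22.7% of macrophages. Ctss, a lysosomal protease gene, had UMIs in 0 of 205 and 2 of 939 fibroblasts and in 100% of macrophages of both libraries. T cell markers were at 0 in both classes. B cell markers summed to 0 and 0.239 CPM in fibroblasts of Heart1 and Heart2 and to 20.2 and 9.3 CPM in macrophages. The same sums for neutrophil markers were 0 and 0.358 CPM in fibroblasts and 31.7 and 28.4 CPM in macrophages. Mural markers (Rgs5, Kcnj8, Abcc9 and Vtn) summed to 98.1 and 47.3 CPM in fibroblasts (Heart1, then Heart2) and to 0 and 0.49 CPM in macrophages. Genes of cardiomyocytes summed to 37.9 and 15.4 CPM in fibroblasts and to 112 and 68.5 CPM in macrophages. The part of any of these lists in the results was not tested.

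The transcription factor p53, encoded by Trp53, becomes stable and active after DNA damage and other stresses, and then raises the transcription of its target genes. Through p21 it halts the cell cycle, and through Mdm2, a ubiquitin ligase that targets p53 for destruction, it limits its own activity. In senescent cells, which have left the cell cycle for good, p21 and the p16 product of Cdkn2a are both markers of the arrest, but p16 acts through the retinoblastoma protein and is not a p53 target.

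Promoter windows of these genes are shown because p53 acts by binding DNA as pairs of half-sites. Windows of 300 bases, from 250 before to 50 after a transcription start, were taken from RefSeq on GRCm38.p6, and 11 of them belonged to 8 of the 10 genes (none was matched for Zmat3 and Trp53inp1). Both strands were searched for the p53 half-site consensus of 10 bases, which reads alike on either strand. An exact half-site was found in 4 of the 11 windows, against 2745 of 32851 windows of all genes (8.36%). In the sequences that follow, 5′ to 3′ on the gene's strand, capitals mark exact half-sites and any neighbouring half-site with 1 mismatch.
Cdkn1a, chr17:29090729-29091028, plus strand: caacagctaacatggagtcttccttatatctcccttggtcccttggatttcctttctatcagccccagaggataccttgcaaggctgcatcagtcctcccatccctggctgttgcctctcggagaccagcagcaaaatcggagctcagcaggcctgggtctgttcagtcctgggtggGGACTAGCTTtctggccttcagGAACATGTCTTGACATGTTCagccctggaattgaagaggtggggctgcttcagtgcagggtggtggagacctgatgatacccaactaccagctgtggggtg
Ccng1, chr11:40755237-40755536, minus strand: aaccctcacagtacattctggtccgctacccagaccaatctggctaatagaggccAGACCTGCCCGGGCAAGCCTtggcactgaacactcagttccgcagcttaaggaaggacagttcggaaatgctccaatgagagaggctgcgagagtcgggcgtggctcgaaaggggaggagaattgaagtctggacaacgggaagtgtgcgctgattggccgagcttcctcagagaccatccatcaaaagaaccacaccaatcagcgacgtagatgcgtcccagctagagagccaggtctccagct
Mdm2, chr10:117710709-117711008, minus strand: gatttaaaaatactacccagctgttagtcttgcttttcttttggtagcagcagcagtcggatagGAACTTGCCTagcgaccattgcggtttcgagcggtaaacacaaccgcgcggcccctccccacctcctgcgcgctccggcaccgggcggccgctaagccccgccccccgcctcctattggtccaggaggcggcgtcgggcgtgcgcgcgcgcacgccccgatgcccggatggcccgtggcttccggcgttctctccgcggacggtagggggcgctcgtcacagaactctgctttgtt
Sesn1, chr10:41887189-41887488, plus strand: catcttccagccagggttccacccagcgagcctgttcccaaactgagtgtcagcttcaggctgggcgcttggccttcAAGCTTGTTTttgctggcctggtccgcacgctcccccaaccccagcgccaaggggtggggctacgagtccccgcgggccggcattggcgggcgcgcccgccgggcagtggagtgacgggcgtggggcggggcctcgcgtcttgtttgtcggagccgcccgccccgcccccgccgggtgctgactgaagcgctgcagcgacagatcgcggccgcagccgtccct
Phlda3, chr1:135765835-135766134, plus strand: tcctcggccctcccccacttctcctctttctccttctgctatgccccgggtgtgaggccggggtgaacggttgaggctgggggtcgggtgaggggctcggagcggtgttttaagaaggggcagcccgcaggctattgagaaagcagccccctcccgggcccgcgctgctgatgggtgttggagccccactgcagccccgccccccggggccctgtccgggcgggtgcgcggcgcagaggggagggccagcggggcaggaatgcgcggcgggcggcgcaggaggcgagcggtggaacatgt
The printed Cdkn1a window, 1 of 2 for this gene, held 2 exact half-sites, GGACTAGCTT at -73 and GAACATGTCT at -51 from the start, and GAACATGTCT runs straight into TGACATGTTC, which has 1 mismatch. The window of the other Cdkn1a start, chr17:29093519-29093818, held none. Ccng1 likewise held an adjoining pair, AGACCTGCCC with 1 mismatch at -195 followed by GGGCAAGCCT at -185. Such a pair, with at most 13 bases in between, was present in 206 of the 32851 windows (0.627%). Mdm2 and the second Sesn1 start each held a single half-site, and the Phlda3 window, printed for comparison, held none. A match describes the letters of the window and is not evidence of binding.

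Cdkn1a was among the more abundant transcripts of both cell types, and it was concentrated in a minority of cells. Its level was 236 CPM (95% interval 218 to 256) in fibroblasts of Heart1 and 148 (140 to 157) in fibroblasts of Heart2. In macrophages it was 311 CPM (255 to 376) in Heart1 and 152 (136 to 170) in Heart2. These levels lay above those of 93.4% to 97.2% of all genes in the same class and library. UMIs of Cdkn1a were present in 48.3% (41.3 to 55.4) of fibroblasts in Heart1 and 29.2% (26.3 to 32.2) in Heart2, and in 51.4% (34.4 to 68.1) and 37.2% (30.6 to 44.2) of macrophages. Intervals are exact, Poisson for levels and Clopper-Pearson for shares, and cover counting error only. The 21 of 205 fibroblasts of Heart1 with the most Cdkn1a UMIs held 63.1% of them, and the top 94 of 939 in Heart2 held 79.6%. In macrophages the top 4 of 37 held 61.1% and the top 21 of 207 held 67.5%. After each cell was thinned to 3000 UMIs, the variance of Cdkn1a over its mean was 3.22 and 4.0 in fibroblasts and 2.39 and 2.57 in macrophages of Heart1 and Heart2, where a value near 1 is what counting alone gives. For Mdm2, Ccng1, Zmat3, Sesn1 and Trp53inp1 this ratio lay between 0.889 and 1.26 in every class and library. A low mean can keep the ratio near 1 but does not fix it there. In macrophages of Heart2, Sesn1 had 72 thinned UMIs and a ratio of 1.13, whereas Cdkn1a had 81 and a ratio of 2.57. For Phlda3 it was 1.40 and 1.49 in fibroblasts and 1.30 and 1.68 in macrophages, and for Gdf15 it reached 7.23 in macrophages of Heart2, where 1 cell held most of the UMIs.

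Phlda3, whose product competes with the kinase Akt for membrane lipids, was the most abundant of the 10 genes in fibroblasts and was lower in macrophages, where it ranked 3 of the 10 in Heart1 and 6 in Heart2. Its level was 299.6 CPM (279 to 321) in fibroblasts of Heart1 and 243 (232 to 254) in those of Heart2, against 40.3 CPM (22.1 to 67.7) and 26.4 (19.9 to 34.5) in macrophages. It had UMIs in 87.8% and 76.1% of fibroblasts and in 18.9% and 14.0% of macrophages. Unlike Cdkn1a it was spread over most fibroblasts, the top 21 cells holding 34.5% of its UMIs in Heart1 and the top 94 holding 35.3% in Heart2. For scale on RNA from other cells, 4 fibroblast genes that the gate did not use (Bgn, Sparc, Serpinf1 and Fstl1) summed to 10398 and 6670 CPM in fibroblasts and to 37.5 and 48.0 CPM in macrophages.

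Among the genes that act back on p53, Mdm2 had 25.6 and 29.6 CPM in fibroblasts of Heart1 and Heart2, against 25.9 and 44.6 CPM in macrophages. Ccng1, which encodes cyclin G1, a partner of a phosphatase that acts on Mdm2, had 40.9 CPM in fibroblasts of both libraries, against 34.6 and 52.9 CPM in macrophages. Trp53inp1, a nuclear protein that promotes p53 activity, had 27.5 and 26.6 CPM in fibroblasts, against 37.5 and 15.2 CPM in macrophages. For all 3 the values of the classes overlapped between libraries.

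Sesn1, a sestrin that restrains the growth kinase complex mTORC1, was the second most abundant of the 10 in macrophages of both libraries. It had 20.4 and 29.4 CPM in fibroblasts of Heart1 and Heart2, against 54.7 (33.0 to 85.5) and 117.5 CPM (103 to 133) in macrophages. Its UMIs were in 23.9% and 22.7% of fibroblasts, against 32.4% and 61.4% of macrophages, so the classes stood apart most clearly in Heart2. The gene overlaps 9930024M15Rik on the same strand, which has no entry in the table. Zmat3, an RNA-binding protein, had 29.0 and 33.8 CPM in fibroblasts, against 34.6 and 14.7 CPM in macrophages, where it rested on 12 and 30 UMIs.

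The remaining genes were low or rare. Plk2, a polo-like kinase, had 12.6 and 2.15 CPM in fibroblasts of Heart1 and Heart2, against 23.0 CPM in macrophages of each library. Gdf15, a secreted member of the TGF-β superfamily, had 3.72 and 3.46 CPM in fibroblasts, against 28.8 and 39.7 CPM in macrophages. In macrophages of Heart2 its 81 UMIs came from 9 of 207 cells, and 1 cell held 45 of them. Without that cell, an alternative added after the values were seen, the level was 17.8 CPM. Eda2r, a receptor of the TNF receptor family, had 3.72 and 5.25 CPM in fibroblasts (8 of 205 and 39 of 939 cells) and no UMI in any of the 37 and 207 macrophages, where the upper limits of the intervals were 10.6 and 1.81 CPM.

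**Figure D1:**
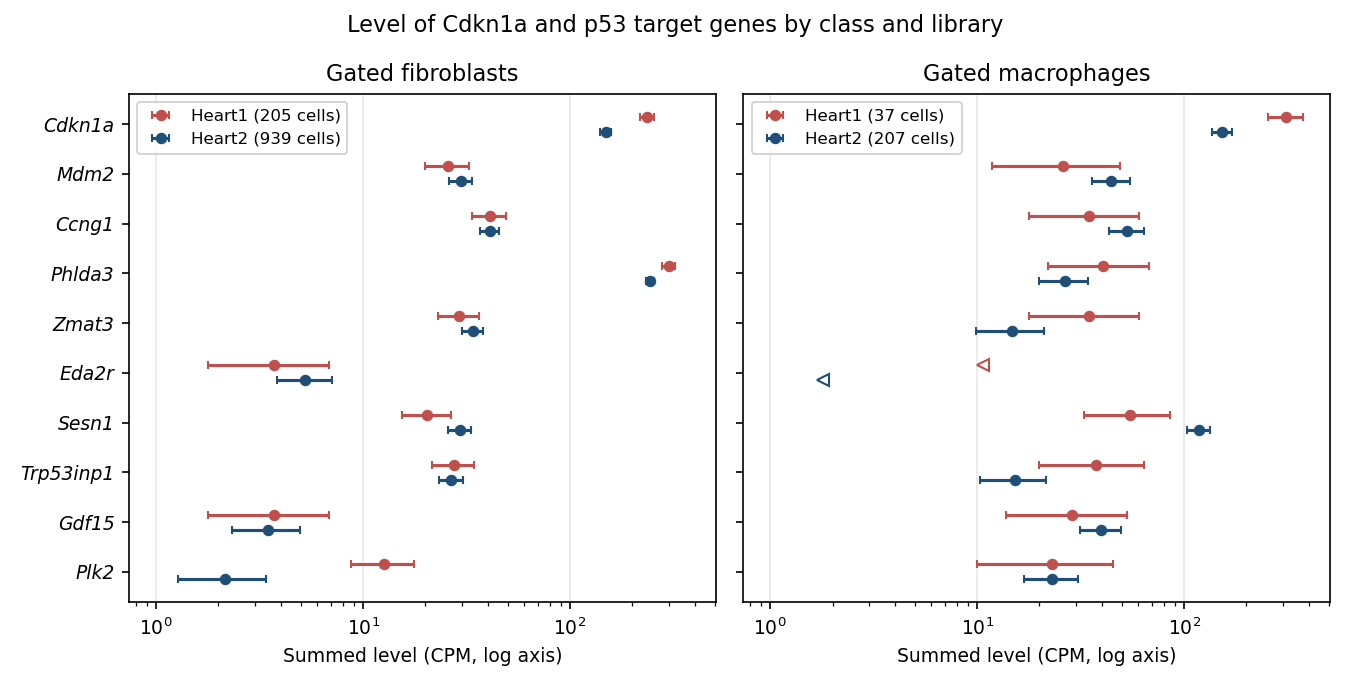
Level of each of the 10 genes in CPM on a log axis, in fibroblasts (left) and macrophages (right), for Heart1 (red) and Heart2 (blue). Points are summed UMIs of all cells of the class, bars are exact 95% Poisson intervals, and open triangles mark the upper limit where no UMI was seen. Phlda3 and Cdkn1a stand above the other genes in fibroblasts, and Cdkn1a does so in macrophages.

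The order of the levels in fibroblasts was Phlda3, then Cdkn1a, then Ccng1, in both libraries, and the intervals of Phlda3 and Cdkn1a, and of Cdkn1a and Ccng1, did not overlap. From Ccng1 down through Zmat3, Mdm2, Sesn1 and Trp53inp1, each neighbour's interval overlapped the next in both libraries. Genes further apart in the order could still be told apart, since Ccng1 lay above Sesn1 and Mdm2 in both libraries and also above Trp53inp1 in Heart2. In macrophages Cdkn1a came first and Sesn1 second, with intervals apart in both libraries. In Heart1 macrophages no pair of neighbours below Sesn1 was separable, and in Heart2 the interval of Sesn1 also lay above that of Ccng1. The median cell had UMIs of 3 of the 10 genes in fibroblasts of Heart1 and of 2 in those of Heart2, and of 2 in macrophages of each library. None of the 10 was seen in 4.39% and 7.35% of fibroblasts and in 24.3% and 13.5% of macrophages. Thinned to equal depth the median was 1 in every class and library.

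The difference between fibroblasts and macrophages of the same library was tested with limma on the 4 summed profiles, as log2(CPM + 5) with library as a block and Benjamini-Hochberg adjustment over the 8789 genes whose mean reached 10 CPM. Of the 10 genes, 9 passed that filter, and Eda2r did not. Adjusted p was below 0.05 for 4 of the 9, against 44.4% of all genes tested, so the share called was near the background. Of these, 1 was higher in fibroblasts, against 26.7% of all genes, and 3 were lower, against 17.7%. The median difference over the 9 was -0.21, beside 0.16 over all genes. With 1 residual degree of freedom and 53.3 borrowed from other genes, the errors of the fit rest on the spread pooled over genes. With library as a block, that spread is how far the class difference varied between these libraries. The p-values measure only this variation, which may be technical.

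Phlda3 was the gene called higher in fibroblasts, by 2.86 ± 0.23 on the log2 scale (SE), with 2.75 in Heart1 and 2.98 in Heart2. Its limma adjusted p was 2.86e-16, and 4.59e-16 to 0.000394 over 9 alternatives. Sesn1 was lower in fibroblasts, with a difference of -1.53 ± 0.26, -1.23 in Heart1 and -1.83 in Heart2. Its limma adjusted p was 2.0e-06, and 2.03e-06 to 0.0244 over the alternatives. Gdf15 was lower as well, with -2.18 ± 0.36, -1.96 in Heart1 and -2.40 in Heart2, at a limma adjusted p of 7.78e-07 (1.72e-06 to 0.00791 over the alternatives). Leaving out the 1 macrophage rich in Gdf15 gave a mean of -1.69. Plk2 was lower by the same test, with -1.32 ± 0.37, -0.67 in Heart1 and -1.97 in Heart2. Its limma adjusted p was 0.00273, and it lost the call without the block and under a wider gate (adjusted p = 0.0707 and 0.0929, with 0.00335 to 0.0929 over the alternatives). Phlda3, Sesn1 and Gdf15 differed at least 2-fold the same way in both libraries, 3 of 9, against 25.8% of all genes.

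Cdkn1a did not pass the test between the classes. Its difference was -0.21 ± 0.20, -0.39 in Heart1 and -0.04 in Heart2, at a limma adjusted p of 0.428. Mdm2 had -0.27 ± 0.28 (adjusted p = 0.485) and Ccng1 -0.06 ± 0.27 (adjusted p = 0.889). Zmat3 had 0.38 ± 0.30 (adjusted p = 0.327) and Trp53inp1 had 0.13 ± 0.30 (adjusted p = 0.765). Zmat3, Trp53inp1 and Ccng1 changed sign between the libraries, Zmat3 with -0.22 in Heart1 and 0.98 in Heart2. Between the same classes, then, Phlda3 was higher in fibroblasts, Sesn1, Gdf15 and Plk2 were lower, and the other 5 were not called.

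**Figure D2:**
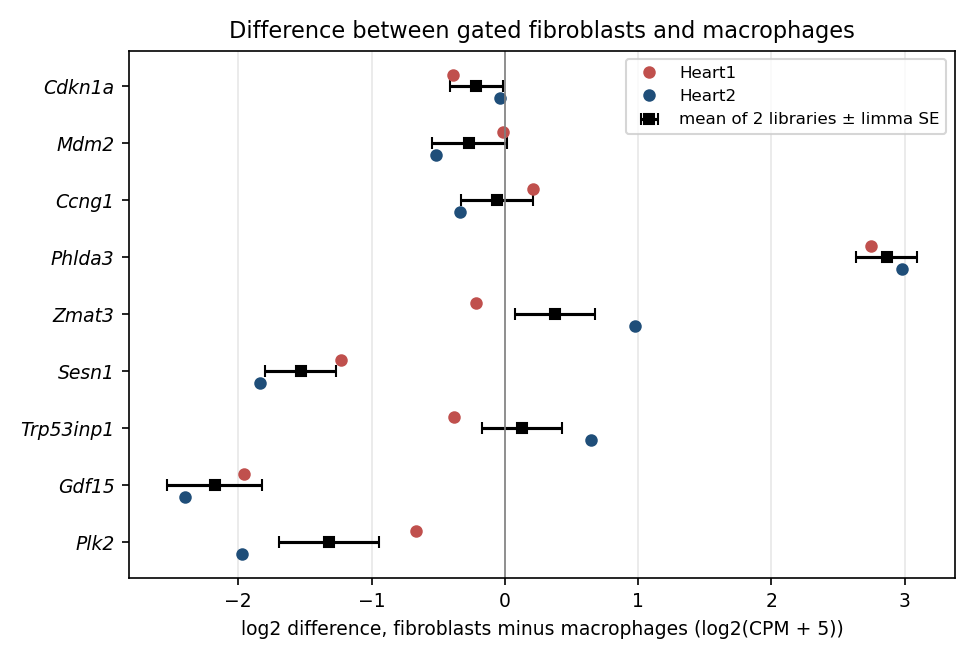
Difference between fibroblasts and macrophages in log2(CPM + 5) for the 9 genes that passed the filter. Squares are means of both libraries with the limma standard error, and circles are the value in Heart1 (red) and Heart2 (blue). Phlda3 lies at 2.86, while Sesn1, Gdf15 and Plk2 lie below -1.

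Of 27 other genes of the p53 pathway, 17 passed the filter and 6 were called, beside 44.4% of all genes, with a median difference of 0.10. Gadd45a, Ercc5, Fas and Ephx1 were higher in fibroblasts, and Dcxr and Bax were lower (all but Dcxr named after their values were seen). The count of 4 higher was 2 under each of 4 alternatives and 7 without a filter. Dcxr, a carbonyl and xylulose reductase, was the only one of the 17 at least 2-fold apart the same way in both libraries, beside 25.8% of all genes. It had 16.0 and 10.7 CPM in fibroblasts of Heart1 and Heart2, against 66.3 and 52.4 CPM in macrophages, a difference of -1.82 ± 0.28 (limma adjusted p = 2.33e-07). Trp53 itself had 55.0 and 81.9 CPM in fibroblasts, against 34.6 and 57.3 CPM in macrophages, a difference of 0.54 ± 0.25 that did not pass (limma adjusted p = 0.0789). Mdm4, the Mdm2 relative that holds p53 inactive, had 44.2 and 58.4 CPM in fibroblasts, against 40.3 and 43.6 CPM in macrophages (0.25 ± 0.26, limma adjusted p = 0.474). The abundance of Trp53 RNA says little of p53 activity, which is set mainly at the protein.

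Heart1 and Heart2 belong to the same group, so their difference is a description of 1 library against 1 library and was not tested. In fibroblasts 0 of the 7 genes that passed the filter were at least 2-fold apart, against 3.93% of all genes. The intervals of 3 of the 10 lay apart, with Cdkn1a at 236 and 148 CPM, Phlda3 at 299.6 and 243 CPM and Plk2 at 12.6 and 2.15 CPM in Heart1 and Heart2, all higher in Heart1. How many of all genes had intervals apart was not counted in either class, so such counts have no background here. In macrophages 4 of 9 genes were at least 2-fold apart, against 8.16% of all genes, with 3 higher in Heart1 (3.98% of all genes) and 1 lower (4.18%). On the log2 scale Cdkn1a differed by 1.01, Zmat3 by 1.01, Trp53inp1 by 1.07 and Sesn1 by -1.04, Heart1 minus Heart2. The count was 1 of 9 when every cell was given equal weight, and the intervals lay apart for Cdkn1a and Sesn1 only. The higher Cdkn1a of Heart1 came with a higher sum of 10 immediate early genes, which handling and dissociation of tissue are known to raise. That sum was 4997 CPM in Heart1 and 1303 in Heart2 in fibroblasts, and 2996 and 1146 in macrophages. The mural and cardiomyocyte sums given above were also higher in Heart1 fibroblasts, and the part of these lists in the difference was not tested.

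From cell to cell, Phlda3 and Zmat3 reached an r of 0.1 with Cdkn1a in every class and library, also when cells were thinned. So did Gdf15, which was seen in few cells, while Ccng1 and Trp53inp1 had a positive r throughout. In thinned macrophages of Heart1 the values of Phlda3 and Zmat3 rest on 4 and 2 cells with a UMI. Sesn1 had an r near 0 in fibroblasts. Pearson r of the deposited values was used as a description, with no p, since cells of a library share its preparation and differ in depth. In fibroblasts (205 cells of Heart1 and 939 of Heart2) the r with Cdkn1a was 0.301 and 0.325 for Phlda3, 0.264 and 0.247 for Zmat3, and 0.201 and 0.284 for Ccng1. It was 0.157 and 0.238 for Mdm2 and 0.156 and 0.220 for Trp53inp1. For Sesn1 it was 0.030 and -0.004. These 6 genes were detected in at least 5% of fibroblasts in both libraries, and 5 of them reached an r of 0.1 in both, against 0.921% of all 9560 such genes. With cells thinned to 3000 UMIs, 2 of the 6 did so (Phlda3 with 0.128 and 0.256, Zmat3 with 0.205 and 0.148), against 0.335% of all genes. In Heart1 the thinned r was 0.027 for Ccng1, 0.079 for Mdm2 and 0.068 for Trp53inp1, and in Heart2 it was 0.180, 0.134 and 0.180. By Spearman rho, without thinning, the values in Heart1 were 0.114 for Ccng1, 0.099 for Mdm2 and 0.070 for Trp53inp1. In Heart2 they were 0.229, 0.188 and 0.135. Eda2r, Gdf15 and Plk2 were seen in too few fibroblasts of at least 1 library to be ranked, and their r of 0.165 to 0.287 with Cdkn1a rests on few cells. Thinned, the r was 0.266 and 0.138 for Eda2r, 0.119 and 0.126 for Gdf15, and -0.011 and -0.024 for Plk2. The thinned Heart1 values of Eda2r and Gdf15 rest on 1 and 2 cells with a UMI.

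In order of the lower r of the libraries, Phlda3 ranked 5, Zmat3 10, Ccng1 15, Mdm2 25 and Trp53inp1 26 among the 9560 genes, and Sesn1 ranked 3552. In macrophages (37 cells of Heart1 and 207 of Heart2) Phlda3 ranked 1 of 8352 genes, with an r of 0.593 and 0.528. Trp53inp1 ranked 4, with 0.372 and 0.451, and Ccng1 ranked 8, with 0.350 and 0.323. Zmat3 ranked 52, with 0.415 and 0.214. Plk2, Mdm2 and Sesn1 ranked 699, 1830 and 6252, and Sesn1 had 0.161 and -0.110. An r of 0.1 in both libraries was reached by 4 of 7, against 6.61% of all genes, and with thinned cells by 3 of 7 (Phlda3, Zmat3 and Ccng1), against 3.58%. In Heart1 the thinned values of these 3 genes rest on 4, 2 and 3 cells with a UMI. The first place of Phlda3 in macrophages rests on 7 cells with a Phlda3 UMI in Heart1 and 29 in Heart2. Gdf15, seen in too few macrophages of Heart2 to be ranked, had an r of 0.539 and 0.305, from 6 and 9 cells with a UMI. Thinned, these were 0.285 and 0.317, from 1 and 4 cells.

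**Figure D3:**
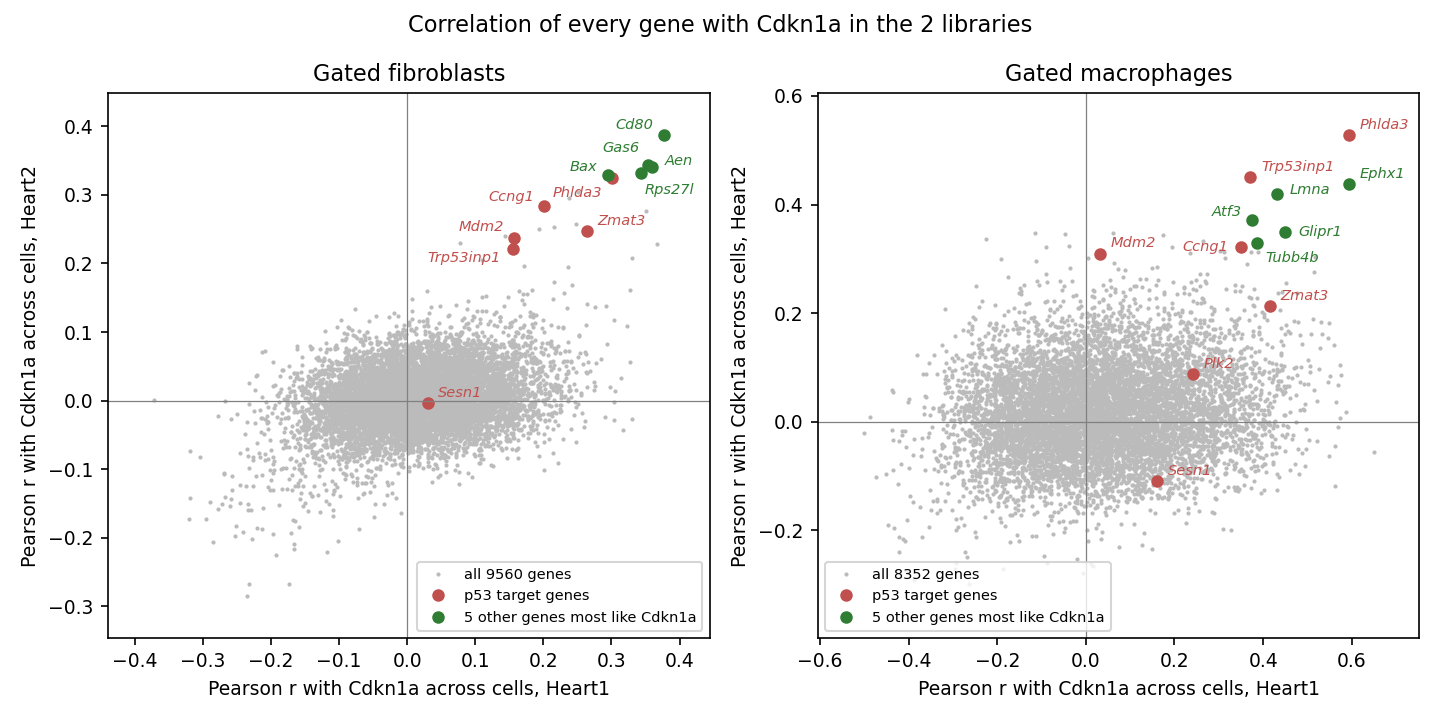
Pearson r of each gene with Cdkn1a across cells in Heart1 (horizontal) and Heart2 (vertical), for fibroblasts (left, 9560 genes) and macrophages (right, 8352 genes). Grey points are all genes detected in at least 5% of cells of both libraries, red points the p53 targets and green points the 5 other genes most like Cdkn1a. Phlda3 lies at the upper right in both panels, and Sesn1 lies within the grey cloud.

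The other genes most like Cdkn1a were named by the highest lower r of the 2 libraries. In fibroblasts they were Cd80, a ligand of T cell costimulatory receptors (0.377 and 0.387), Gas6, a ligand of the Axl and Mertk receptors (0.354 and 0.344), Aen, a nuclease (0.360 and 0.341), Rps27l, a ribosomal protein gene (0.343 and 0.332), and Bax, an effector of apoptosis (0.295 and 0.329). Aen, Rps27l and Bax are known p53 targets. In macrophages they were Ephx1, an epoxide hydrolase (0.594 and 0.438), Lmna, the gene of nuclear lamins A and C (0.431 and 0.419), Atf3, a stress-induced transcription factor (0.376 and 0.371), Glipr1 (0.450 and 0.349) and Tubb4b, a β-tubulin (0.387 and 0.329). Atf3 is also 1 of the 10 immediate early genes summed above. Thinned to 3000 UMIs per cell, the 5 fibroblast genes had an r of 0.071 (Bax) to 0.301 (Gas6) in Heart1 and 0.261 (Aen) to 0.281 (Cd80) in Heart2, whereas Tubb4b had -0.162 in macrophages of Heart1. Reads of Rps27l and Tubb4b could be shared with their close copies. Of the wider p53 list, an r of 0.1 with Cdkn1a in both libraries was reached by 7 of 20 genes compared in fibroblasts (Bax, Bbc3, Aen, Ei24, Btg2, Dcxr and Ephx1) and by 5 of 16 in macrophages (Trp53, Bax, Ei24, Btg2 and Ephx1), against 0.921% and 6.61% of all genes.

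Pairs among the 10 genes were also compared as a whole. Over all 45 pairs of the 10 genes the median r was 0.114 in fibroblasts of Heart1 and 0.092 in those of Heart2. Over the 36 pairs without Eda2r it was 0.181 and 0.089 in macrophages. The median over all pairs of genes detected in 5% of cells was 0.001 and 0.003 in fibroblasts and -0.021 and 0.005 in macrophages. An r of 0.1 or more was reached by 25 and 18 of 45 pairs in fibroblasts, against 10.7% and 0.725% of all pairs of genes so detected. In macrophages 25 and 17 of 36 did so, against 27.9% and 11.5%. The pairs of the 10 genes did not have to meet that 5% rule. Eda2r, Gdf15 and Plk2 did not meet it in fibroblasts of at least 1 library, nor Gdf15 in macrophages of Heart2, so the shares are not strictly alike. Cdkn1a had the highest mean r with the other genes in fibroblasts of both libraries (0.202 and 0.220) and in macrophages of Heart2 (0.263), and Phlda3 had the highest in macrophages of Heart1 (0.376). Sesn1 had the lowest in fibroblasts of both libraries (0.042 and 0.003) and in macrophages of Heart2 (-0.024). Thinned to 3000 UMIs per cell, the medians were 0.030 and 0.034 in fibroblasts and -0.050 and 0.020 in macrophages.

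**Figure D4:**
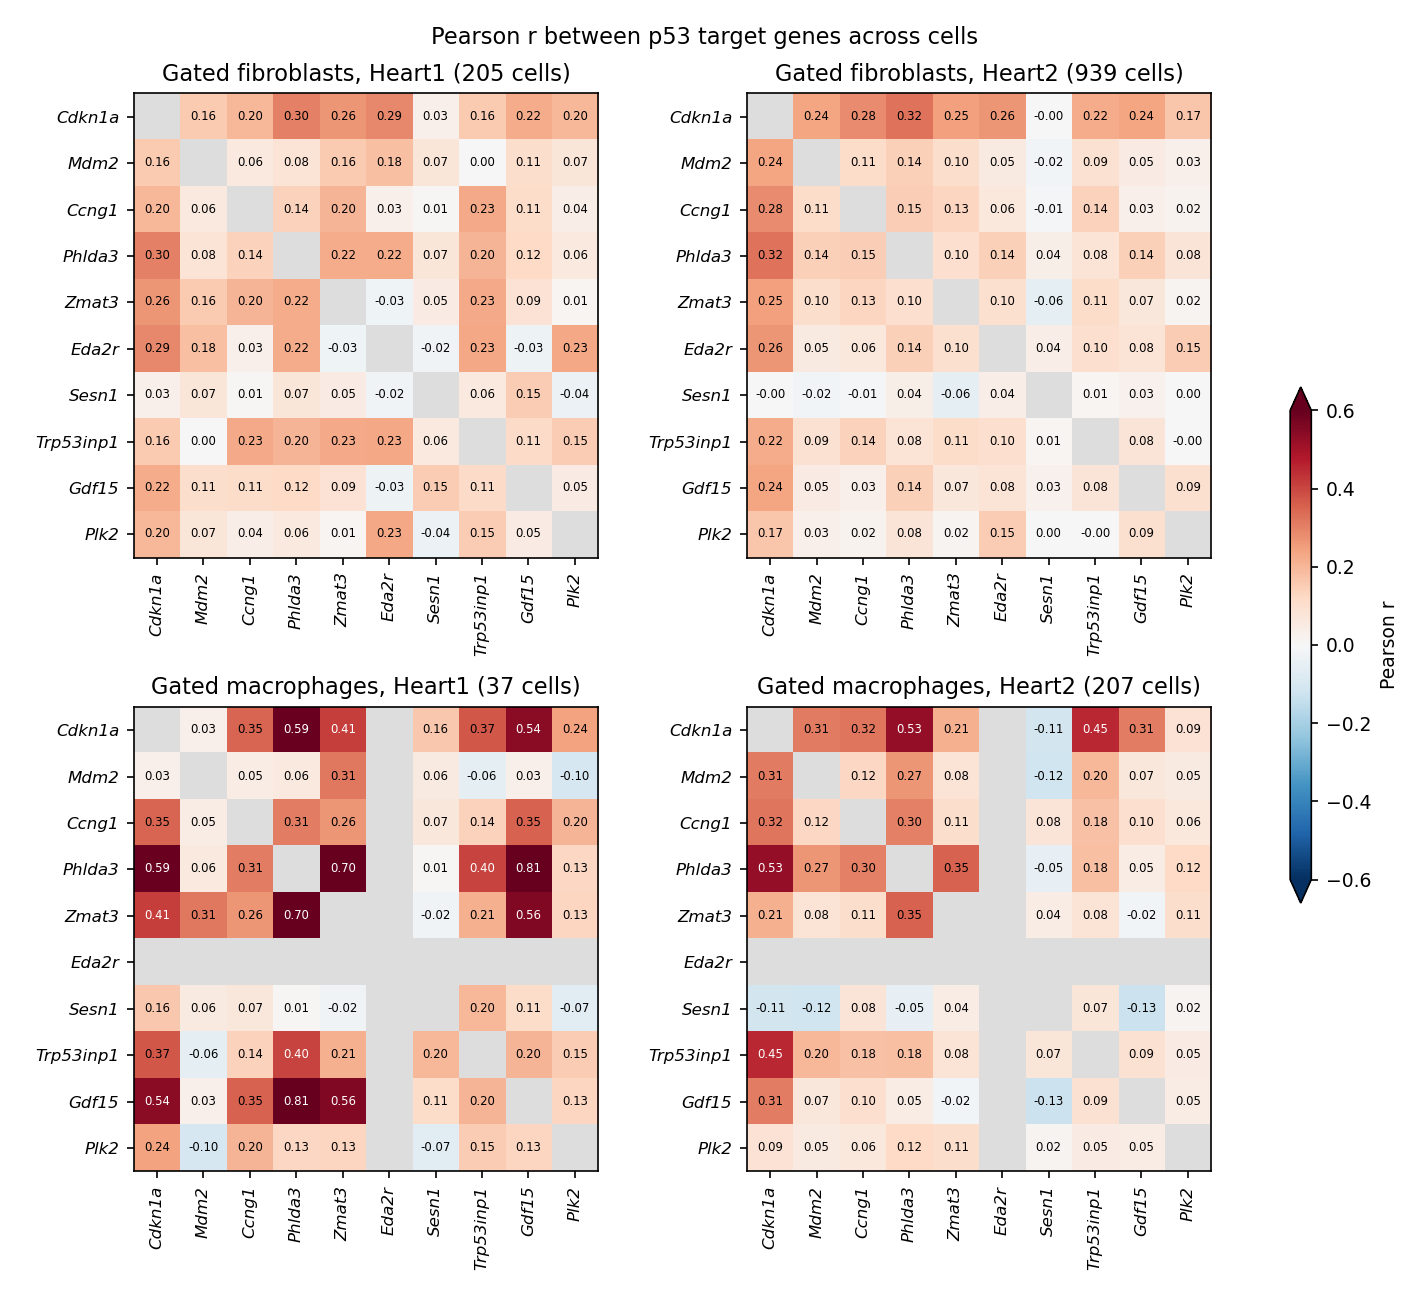
Pearson r between each pair of the 10 genes across fibroblasts (top) and macrophages (bottom) of Heart1 (left) and Heart2 (right). Red is positive and blue negative, and grey marks a gene with itself or with no UMI (Eda2r in macrophages). The Cdkn1a line is the reddest in both fibroblast panels, and the Sesn1 line is near 0.

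Other properties of the cells also went with Cdkn1a. Its r with the logarithm of the cell's UMIs was 0.170 and 0.004 in fibroblasts of Heart1 and Heart2 and 0.317 and 0.098 in macrophages. With the mitochondrial share it was -0.216 and -0.136 in fibroblasts and -0.018 and -0.204 in macrophages. With the summed immediate early genes it was 0.257 and 0.186 in fibroblasts and 0.288 and 0.316 in macrophages. With 7 genes of the integrated stress response, the programme run by Atf4, it was 0.373 and 0.146 in fibroblasts and 0.129 and 0.296 in macrophages. Btg2 of the immediate early list, and Sesn2 and Ddit4 of the stress list, also stand in the wider p53 list. The part of these in the co-detection was not tested. Holding the cell's UMIs constant left the r of Cdkn1a and Phlda3 at 0.273 and 0.326 in fibroblasts and 0.564 and 0.523 in macrophages. Thinning cells to 3000 UMIs gave 0.128 and 0.256 in fibroblasts and 0.516 and 0.221 in macrophages. With Cdkn2a, the p16 gene, the r of Cdkn1a was 0.256 and 0.041 in fibroblasts and 0.176 and 0.239 in macrophages. With Trp53 it was 0.043 and 0.065 in fibroblasts and 0.231 and 0.123 in macrophages.

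The same pattern was read in levels by sorting thinned cells on their Cdkn1a UMIs into 0, 1 to 2, and 3 or more. In fibroblasts of Heart2 these bins held 769, 121 and 49 cells. Phlda3 was at 219, 287 and 748 CPM in these bins, in order of rising Cdkn1a, and the interval of the top bin (615 to 902) lay above both others. Ccng1 was at 35.1, 57.9 and 149.7 CPM, with the top bin (93.8 to 227) apart from both others. Mdm2 was at 20.8, 57.9 and 74.8 CPM, Zmat3 at 25.1, 66.1 and 74.8 CPM and Trp53inp1 at 20.4, 46.8 and 88.4 CPM, and for each the intervals of the lowest and the top bin did not overlap. Sesn1, at 28.2, 22.0 and 40.8 CPM, had overlapping intervals throughout. How many of all genes had intervals apart between bins was not counted in any class or library. Intervals apart between bins therefore have no background here, and they cover counting error only. The pro-apoptotic Bax was at 133.5, 187 and 524 CPM and Aen at 33.4, 52.3 and 197 CPM. Both were picked above for their r with Cdkn1a in these same fibroblasts, so their rise follows from that choice and adds no support. Trp53 was at 78.9, 77.1 and 95.2 CPM.

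In Heart1 the fibroblast bins held 147, 39 and 19 cells, and fewer differences were resolved. Zmat3 was at 22.7, 25.6 and 123 CPM, with intervals apart between the lowest bin (10.9 to 41.7) and the top bin (49.4 to 253), from 10 and 7 UMIs. Phlda3 was at 222, 308 and 368 CPM with overlapping intervals, and Ccng1 and Mdm2 had at most 5 UMIs in each upper bin. Trp53inp1 did not rise into the top bin, at 18.1, 68.4 and 17.5 CPM from 8, 8 and 1 UMIs. Bax was at 138, 179 and 175 CPM and Aen at 34.0, 94.0 and 87.7 CPM. The intervals of these 3 genes overlapped throughout. Macrophages of Heart2 fell into bins of 164, 33 and 10 cells. There Phlda3 was at 18.3 (8.37 to 34.7) and 10.1 CPM (0.256 to 56.3) in the lower bins, and the interval of the top bin ran over 73.4 to 435 CPM. Ephx1, picked above for its r with Cdkn1a in these same macrophages, was at 65.0, 212 and 367 CPM. Sesn1 was at 134, 40.4 and 66.7 CPM, from 66, 4 and 2 UMIs.

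**Figure D5:**
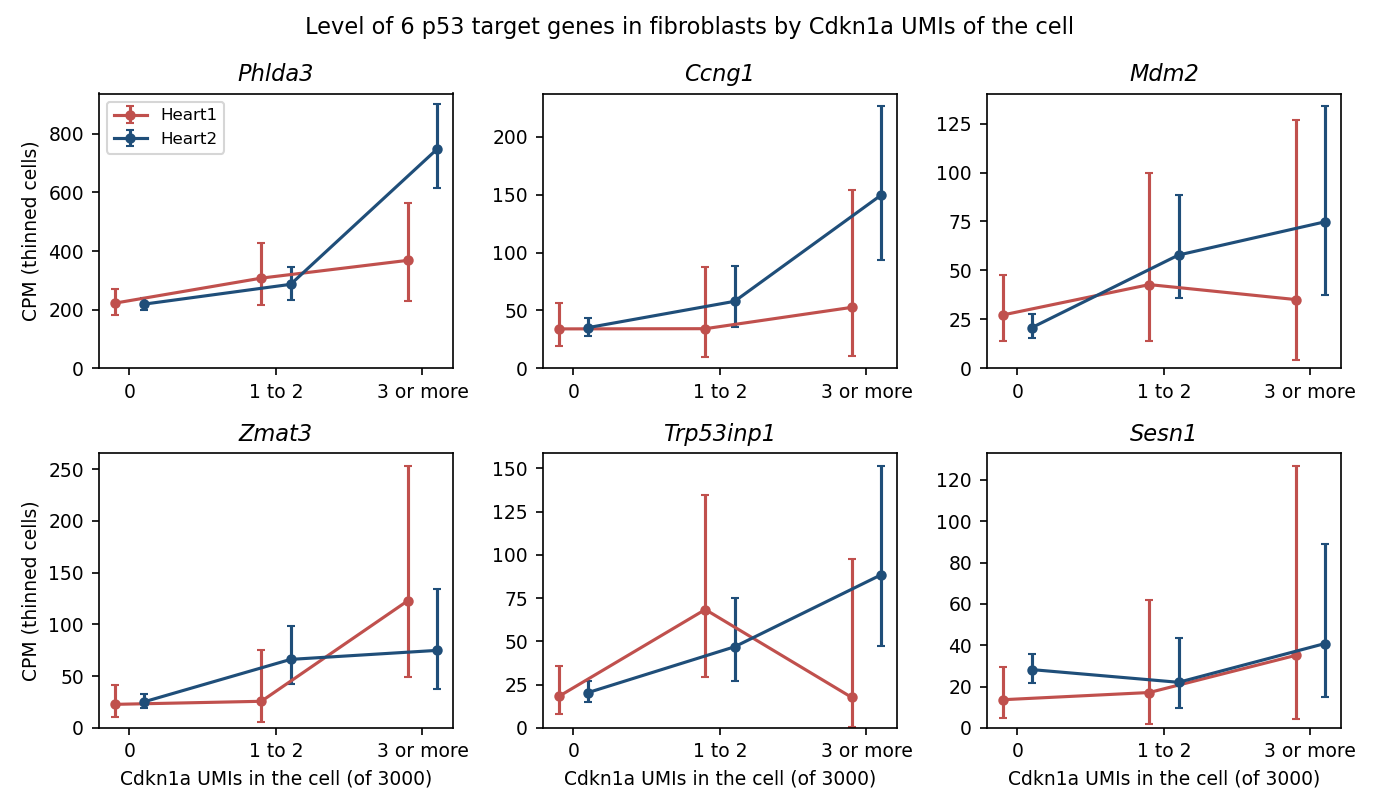
Level in CPM of 6 p53 targets in fibroblasts thinned to 3000 UMIs, by the number of Cdkn1a UMIs in the cell, for Heart1 (red) and Heart2 (blue). Bars are exact 95% Poisson intervals. In Heart2 the levels of Phlda3 and Ccng1 are highest in the 49 cells with 3 or more Cdkn1a UMIs, and those of Sesn1 overlap.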

How the data were processed

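Per the labels' protocols, mCherry-positive heart cells were sorted and sequenced with the 10X Single Cell 3' v3 kit, and the submitters' processing notes name Cell Ranger 3.0.2 and the build mm10. The deposited values are natural logs, ln(1 + x), where x is UMIs scaled to 10000 in each cell. This was read from the values themselves, since x summed to 10000.0 in all cells and all 4459440 values above 0 were whole multiples of 1 UMI within 1e-06. Columns left out numbered 0. The filters and the tool behind the normalization were not given in the sources used here. UMIs were summed per library and class, and limma 3.58.1 (R 4.3.3) was run with a trend, a minimum mean of 10 CPM, a pseudocount of 5 CPM and a threshold of 0.05. This scale understates differences of low genes. No count model was run on these log values. Scrublet in scanpy 1.11.5 predicted 10 doublets in Heart1 and 3 in Heart2 (0.259% of cells), which were kept. Thinning drew 3000 UMIs per cell in 1 random draw. The 10 genes, the lists and the tests were chosen with earlier results of these data known. Named genes were the 10, Trp53 and Mdm4, other pathway genes called and 2-fold apart in both libraries (at most 6), and the 5 genes most like Cdkn1a in each class. Other genes are named where they make up a list or a count. Alternatives changed the pseudocount, filter, scaling, block, gate, doublets, weighting of cells, depth and correlation measure. The analysis was tested on simulated data.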

Additional observations from a re-analysis of the deposited data

How the results depend on the processing

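Phlda3, Sesn1 and Gdf15 kept their calls under all 9 alternatives tested. Plk2 kept its direction but lost the call under no replicate block (-1.32, limma adjusted p = 0.0707) and a wider gate (-0.91, limma adjusted p = 0.0929). Library was the block because both classes come from the same library. Without it 3 of the 10 genes were called instead of 4. Without a filter 2 were called higher in fibroblasts instead of 1, the added gene being Eda2r, and of the other p53 genes 10 were called instead of 6 and 7 were higher instead of 4. The last count was 2 with a pseudocount of 20 CPM, median ratio scaling, no replicate block or predicted doublets left out. Leaving out either library gave 3 to 4 genes at least 2-fold apart. Ccng1, which was not called, changed sign to 0.17 as a mean over cells. Gdf15 was -1.69 without the richest macrophage, an alternative chosen after seeing the data. Between libraries, the fibroblast count of 2-fold genes was 1 instead of 0 under the wider gate and the macrophage count 1 instead of 4 as a mean over cells. The median r over pairs, thinned to 3000 UMIs, was 0.030 in fibroblasts of Heart1, 0.034 in those of Heart2, -0.050 in macrophages of Heart1, a change of sign, and 0.020 in those of Heart2, and Spearman rho gave 0.062 in fibroblasts of Heart2. Median shares of cells with a UMI were 8.29% and 7.88% of fibroblasts and 6.76% and 7.0% of macrophages when thinned. The causes were not tested, apart from thinning and the filter, which change the UMIs and genes used by construction.

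Median ratio scaling moved the median difference of all genes to 0.06, beside 0.16 as reported. The prior degrees of freedom of the limma fit ranged between 4.03 and 53.3 over the settings, so the size of its p-values depends on the setting more than the calls do. The 37 macrophages of Heart1 hold 347087 UMIs, and levels there rest on 8 to 19 UMIs for the genes other than Cdkn1a and Eda2r. Shares and correlations across cells cannot tell a cell without the RNA from one in which it was not sampled.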

Other observations

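In macrophages the pairs of targets without Cdkn1a differed between the libraries. Phlda3 and Zmat3 had an r of 0.698 across the 37 macrophages of Heart1 and 0.352 across the 207 of Heart2, where 4 and 10 cells had UMIs of both. Phlda3 and Gdf15 had 0.810 in Heart1, from 4 cells with both, and 0.045 in Heart2, from 3 cells with both. The Heart2 macrophage with 45 Gdf15 UMIs had 15148 UMIs in all and 8 of Cdkn1a. The number of the 10 genes seen in 1 cell reached 8 and 9 in fibroblasts of Heart1 and Heart2 and 9 and 8 in macrophages. Thinned to 3000 UMIs it reached 5 in fibroblasts of each library and 4 and 5 in macrophages.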
